A study of Mus musculus with 2 samples.

Results

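The macrophages of pancreatic islets were described in islet cells of C57BL/6J mice by droplet single-cell RNA sequencing. Cells were chosen by measured values. A barcode was taken as a macrophage when it had at least 500 detected genes, at most 10% mitochondrial UMIs and under 20% of its UMIs (unique molecular identifiers, each standing for 1 captured RNA molecule) from the insulin genes Ins1 and Ins2. It also had to hold at least 3 of the 7 transcripts Lyz2, C1qa, C1qb, C1qc, Csf1r, Cd68 and Adgre1, with 10 or more UMIs over them. This gave 127 macrophages among 10781 cells, 56 of 6387 in the chow library and 71 of 4394 in the high-fat diet (HFD) library. The 7 selecting genes are therefore given as a description only.

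Both groups were wild-type C57BL/6J mice, kept from weaning on for 6 weeks either on regular chow (4 mice) or on a diet with 60% fat (5 mice). No allele, transgene or drug separates them. The islets were released from the pancreas with collagenase (17 minutes), purified on a density gradient, picked by hand, left in culture overnight with serum, and dispersed with 0.05% trypsin for 10 minutes through a 35 µm mesh. Each diet was read as 1 library of pooled mice, without a record of which mouse a cell came from, so diet and library cannot be told apart. No test of diet was possible, and every interval below covers counting error only.

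Islets hold a small population of resident macrophages that sit beside the capillaries and the insulin-secreting beta cells. They are known for lysozyme, the integrin Itgax (CD11c) and abundant MHC class II, the molecule that shows peptides to helper T cells, and for taking up material released by beta cells. They are also a source of the cytokines TNF and interleukin 1 in the islet, and they have been reported to grow in number in obese mice. Macrophages in the tissue around the islet are another population, recognised by the mannose receptor Mrc1 and by scavenger receptors such as Cd163 and Lyve1.

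The deposited tables held 6509 chow and 4539 HFD barcodes with 89292222 and 68544729 UMIs, a median of 12414 and 13911 per barcode, and the quality filter removed 122 and 145 of them. The libraries had 45 barcode sequences in common. One of these belonged to a macrophage, and none was a macrophage in both. Macrophages were somewhat shallower than beta cells: their median was 9644 UMIs in chow (range 3874 to 22539) and 12481 in HFD (4140 to 37468), against 14809.5 and 16946.5 in beta cells. Macrophage levels are given as counts per 1000000 UMIs (CPM) without the 7 hormone genes Ins1, Ins2, Iapp, Gcg, Sst, Ppy and Pyy. The macrophages together supplied 537495 such UMIs in chow and 894178 in HFD.

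Most selected cells stood clear of the other low-insulin cells. They held a median of 123.5 UMIs of the 7 selecting genes in chow and 213 in HFD, and all 7 were detected in 23 of 56 and 43 of 71 cells. The members nearest the threshold held 10, 17 and 29 such UMIs in chow and 22, 52 and 52 in HFD. Just outside it, the highest chow non-members held 7. In HFD one non-member held 33, of which 28 were Cd68 and 5 Lyz2, so that only 2 of the 7 genes were detected, and the next held 11, all of them C1qa. Of the low-insulin cells left out, 72.1% in chow and 66.3% in HFD had none of these UMIs. A further 4 chow and 6 HFD barcodes met the marker condition but were left out for insulin RNA of at least 20%. Their median depth was 21231.5 and 32019.5 UMIs. They stayed among the beta cells and the other cells, so the values given for those classes include them.

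**Figure D1:**
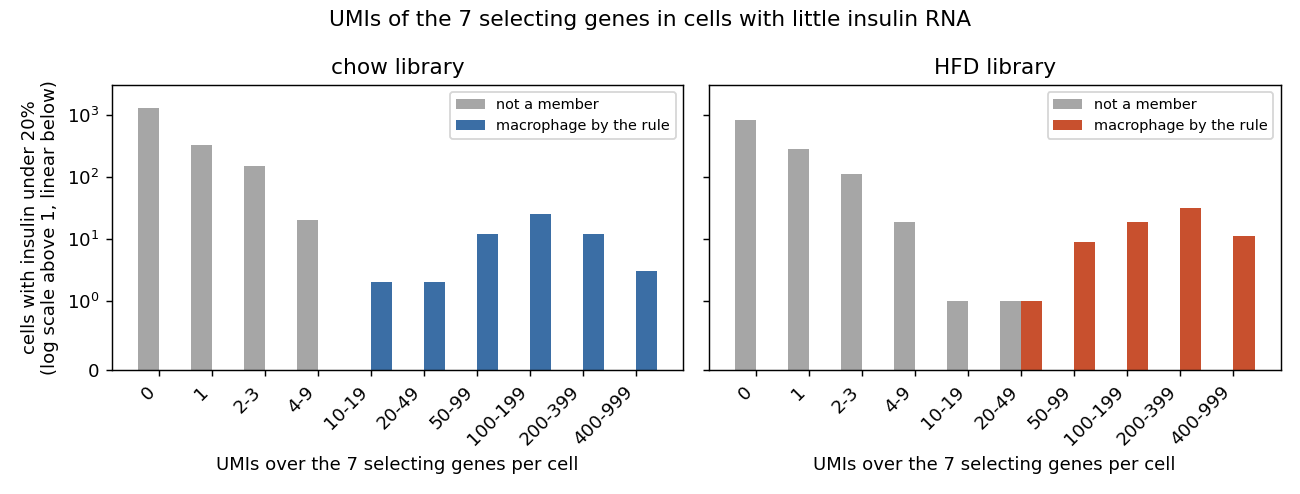
Number of low-insulin cells (vertical axis, logarithmic above 1 and linear below) by their UMIs over the 7 selecting genes (horizontal axis), for the chow library on the left and the HFD library on the right. Grey bars are cells left out and coloured bars are the selected macrophages, most of which lie at 50 UMIs or more while nearly all other cells lie below 10.

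A few members carried transcripts of other cells. Hormone RNA made up over 10% of UMIs in 2 chow macrophages (20.6% and 39.8%) and 1 HFD macrophage (37.6%), and the next highest were at 7.06% and 7.54%. In these 3 cells the hormone was mainly glucagon, pancreatic polypeptide or peptide YY rather than insulin. None of the 127 cells met the like rule for endothelial or mesenchymal cells. The chow cell with 20.6% hormone RNA had the lowest selecting count, 10 UMIs among 20794, and it held all 27 UMIs of Ccl22 and all 5 of Ccr7 in the chow macrophages, both known from migrating dendritic cells. For Krt8, Resp18, Ifitm3 and Ifi27l2a the values without these 3 cells are given beside the main ones.

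Macrophages made up 0.877% of chow cells (exact 95% interval 0.663 to 1.14%) and 1.62% of HFD cells (1.26 to 2.03%). The counting intervals did not overlap. Each share comes from 1 library of hand-picked islets, so the spread between mice is unknown.

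The label of macrophages was checked against genes that took no part in the selection. Among genes with at least 20 counts in macrophages, 629 of 5320 (11.8%) were at least 4-fold higher in macrophages than in all other cells in both libraries. Of the list of resident macrophage genes, 37 of 38 measured members passed this threshold. For phagocytosis and complement receptors it was 20 of 21. Since cells rich in 7 macrophage transcripts were set against the rest, these counts describe the cells and test nothing.

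The most abundant of these was Apoe, the lipid-carrying apolipoprotein, at 19340 CPM in chow and 17127 CPM in HFD macrophages, against 52.8 and 66.9 CPM in the other cells. Ctss, a cathepsin that trims the MHC class II chaperone, stood at 3864 and 3270.0 CPM. Tyrobp, the signalling adaptor of Trem2 and other myeloid receptors, stood at 3034 and 3349 CPM, and its partner Trem2, a lipid receptor, at 829.8 and 1019.9 CPM. All 4 differed by under 2-fold between the libraries, and their level in the other cells pooled was at most 66.9 CPM. Spi1, the transcription factor PU.1 that sets up the myeloid lineage, was at 443 CPM in both libraries, and the integrin Itgax was at 93.0 and 126 CPM.

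By ratio to the other cells, the leading genes were of leukocyte signalling and movement as well as antigen presentation. Cd48, an adhesion receptor of blood cells, had 77 counts in chow macrophages against 3 in all other chow cells, a log2 ratio of 10.66 (9.28 to 13.19), and 142 against 9 in HFD (9.01, 8.11 to 10.24). Rac2, the blood-cell GTPase that drives the NADPH oxidase and actin, was 583-fold higher in chow and 741-fold higher in HFD, and its activator Vav1 had log2 ratios of 9.69 (8.24 to 12.23) and 8.75 (7.75 to 10.20). Cybb, the catalytic subunit of that oxidase, was 1018-fold and 431-fold higher. The ratios rest on few counts in the other cells and are therefore wide, and the lowest bound among these 7 genes was a log2 ratio of 7.75. The Fc receptor Fcgr1, which binds IgG, was 953-fold and 501-fold higher, and the chemokine Ccl3 was 691-fold and 605-fold higher. Tmem119, best known from brain microglia, was present at 94.9 and 102 CPM and was 839-fold and 483-fold higher than in other cells. The other genes taken by the same ratio were Lrrc25, Cyp4f18, Bin2, Ms4a6b, Ms4a7, Gpr65, Nckap1l, Cd244, Ccl4, Clec4n, Bcl2a1d, Lilrb4a and Lilr4b, the last 3 with near-identical copies in the genome among which reads may be split.

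MHC class II was abundant in the cells. Cd74, the invariant chain that guides class II molecules to the endosome, was at 15632 CPM in chow and 15538 CPM in HFD. The class II chains followed, with H2-Aa at 5001 and 4951 CPM, H2-Ab1 at 4683 and 5205 CPM, and H2-Eb1 at 3460 and 4029 CPM. At an equal depth of 4000 UMIs per cell, the single macrophages held between 6 and 146 Cd74 UMIs in chow (median 55, 55 cells) and between 3 and 196 in HFD (median 58, 71 cells). No macrophage lacked Cd74 at that depth. In beta cells it was found in 1.41% and 2.0% of cells at that depth (4.77% and 6.81% without thinning), and the highest single beta cells held 36 and 31 Cd74 UMIs. Barcodes that met the marker condition but held too much insulin RNA count among these beta cells. All 8 measured members of the class II and co-stimulation list passed the 4-fold threshold, against 11.8% of all measured genes.

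**Figure D2:**
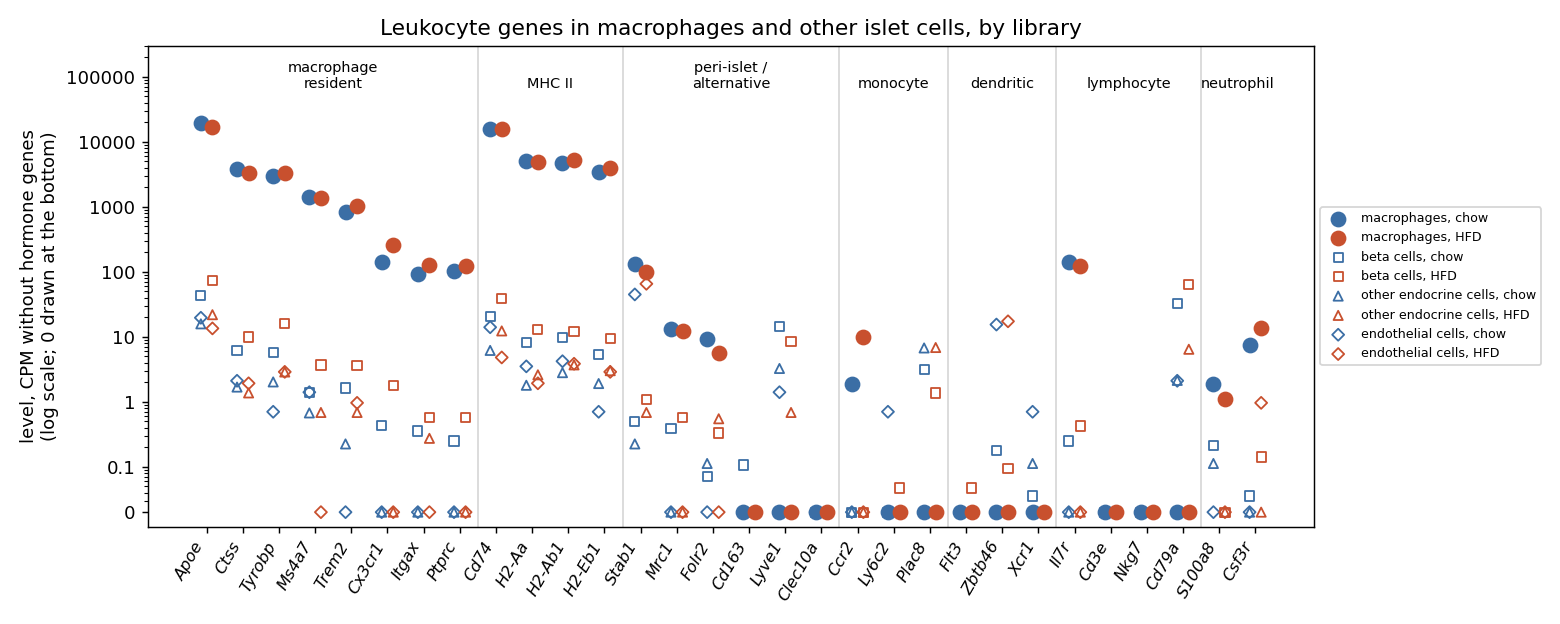
Level of 30 leukocyte genes in CPM without hormone genes (logarithmic axis, with 0 drawn at the bottom) in macrophages (filled circles), beta cells (squares), other endocrine cells (triangles) and endothelial cells (diamonds), chow in blue and HFD in red. Resident and MHC class II genes lie orders of magnitude above the other cells in both libraries, while Cd163, Lyve1, Clec10a, Ly6c2, Plac8, Flt3, Zbtb46, Xcr1, Cd3e, Nkg7 and Cd79a are at 0 in all macrophages.

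Markers of the macrophages around the islet and of alternative activation were nearly absent. Of 21 genes on that list, 10 in chow and 15 in HFD had no count in any macrophage, among them Cd163, Lyve1, Timd4, Cd209f, Clec10a, Mgl2, Chil3, F13a1 and Vsig4. At these depths 0 counts allow up to 5.58 CPM in chow and 3.36 CPM in HFD. Mrc1, the mannose receptor, had 7 counts in chow (13 CPM) and 11 in HFD (12.3 CPM), and the folate receptor Folr2 had 5 in each. Arg1, arginase, had 2 chow counts and none in HFD. The exceptions with most counts in both libraries were the scavenger receptor Stab1, at 134 CPM in chow and 101 CPM in HFD, and the interleukin 4 receptor chain Il4ra, at 65.1 and 98.4 CPM. Retnla, another gene of alternative activation, had 35 chow UMIs, all of them in 1 cell.

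Markers of other blood cells were also at or near 0. For monocytes, Ly6c2, Plac8, Vcan and Fn1 had no counts, and the chemokine receptor Ccr2 had 1 in chow and 9 in HFD. Summed over the list, monocyte markers reached 54.0 CPM in chow and 90.6 CPM in HFD, most of it from Nr4a1, which is also an immediate early gene. For dendritic cells, Flt3, Zbtb46, Cd209a, Xcr1, Clec9a and Itgae had no counts. Their list summed to 956 and 626 CPM, of which Bst2, an interferon-induced gene of many cell types, gave 888 and 621 CPM. For T and NK cells, 8 of the 10 listed genes with an entry had no counts in either library, including Cd3d, Cd3e, Cd3g, Cd8a and Nkg7. Il7r, the interleukin 7 receptor chain, was the one well-detected gene of that list, at 141 and 123 CPM and in 37 of 56 and 46 of 71 macrophages. Neutrophil markers summed to 11.2 and 15.7 CPM, B and plasma cell markers to 9.30 and 3.36 CPM, and mast cell markers to 0. Trac, Trbc1 and Trbc2 of the T cell list and Ighm, Ighd and Igkc of the B cell list had no entry in the deposited counts. These values therefore leave them out.

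The cells also carried much of the equipment of lipid handling and digestion. Of the lipid-associated macrophage genes, 16 of 24 measured members were at least 4-fold higher than in other cells in both libraries. For the lysosome and cathepsin list it was 14 of 27, against 11.8% of all measured genes. Lgals3 (galectin 3) was at 7768 CPM in chow and 5988 CPM in HFD. The lysosomal proteases Ctsb and Ctsd were at 7935 and 3388 CPM in chow and at 7894 and 4369 CPM in HFD. Plin2, which coats lipid droplets, was at 1198 and 1326 CPM, and the fatty acid transporter Cd36 at 683 and 771 CPM. Spp1 (osteopontin), often listed with these genes, was low: it was found in 13 chow and 8 HFD macrophages, and 152 of its 194 HFD UMIs lay in 1 cell. The growth factors included Grn (progranulin; 793 and 763 CPM), Tgfb1 (225 and 289 CPM), Osm (257 and 69.3 CPM) and Igf1 (134 and 99.5 CPM). Pdgfa was at 27.9 and 38 CPM, below the level in other cells (73.4 and 83.0 CPM). Vegfa had 44.7 and 36.9 CPM, and Csf1, the ligand of the macrophage growth receptor, had 0 and 3 counts.

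For the diets, each gene's log2 ratio of HFD over chow CPM was taken in macrophages with 0.5 counts added and set against the median of all genes with a summed count of at least 50 (0.06). This is called the relative log2 ratio. Of 2885 such genes, 75 (2.6%) were over 2-fold higher in the HFD macrophages and 62 (2.15%) over 2-fold lower. Inflammatory activation and immediate early genes were the lists with most members past 2-fold. Interferon-induced and glycolysis genes lay mostly lower in HFD. The resident, MHC class II, phagocytosis and oxidative phosphorylation lists stayed close to the median of all genes.

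**Figure D3:**
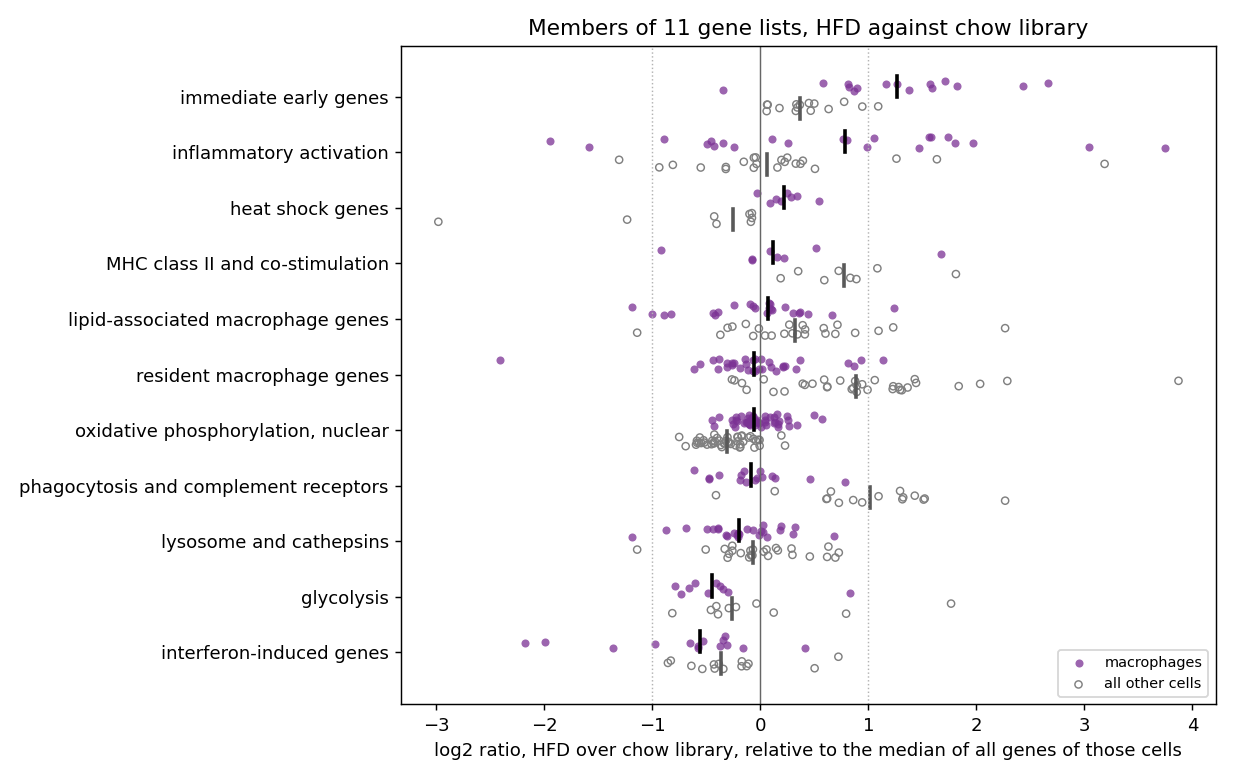
Relative log2 ratio of HFD over chow (horizontal axis) for the measured members of 11 gene lists, in macrophages (filled points) and in all other cells (open points), with a vertical bar at each list's median and dotted lines at 2-fold either way. In macrophages the medians run from 1.27 for immediate early genes and 0.79 for inflammatory activation down to -0.56 for interferon-induced genes, against 0.37, 0.06 and -0.36 in the other cells.

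Of 36 genes on the inflammatory activation list, 22 had a summed count of at least 50. In HFD macrophages 9 of these were over 2-fold higher and 2 over 2-fold lower, against 2.6% and 2.15% of all measured genes. The median relative log2 ratio of the 22 was 0.79 in macrophages and 0.06 in the other cells. In macrophages 14 of the 22 lay above the all-gene median. Taken alone, beta cells had 15 of 22 above their own median and a list median of 0.23, and endothelial cells 14 of 22 and 0.27. At equal depth the summed list held a median of 12 UMIs per chow macrophage (range 2 to 65) and 24 per HFD macrophage (0 to 108). The cells of the libraries overlapped widely. Members with few chow counts reached the count minimum largely through the HFD library, so that their ratios were bound to be large and the count of 9 is a description only. These were Tnfsf9, a co-stimulatory ligand of T cells (2 chow and 58 HFD counts), Nlrp3 (11 and 41), Cxcl1 (14 and 208), Nfkbiz (17 and 101) and Tnfaip3 (17 and 84).

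Tnf, the cytokine TNF, was at 125 CPM in chow macrophages (97.0 to 158) and 512 CPM in HFD macrophages (466 to 561), a relative log2 ratio of 1.96 (1.6 to 2.37). It was found in 32.7% of chow macrophages at equal depth (20.7 to 46.7%) and 70.4% in HFD (58.4 to 80.7%), and without thinning in 28 of 56 and 58 of 71 cells. Most HFD macrophages thus held Tnf, and the highest chow cell still exceeded the median HFD cell (8 against 1 UMIs at equal depth). In beta cells it was found at equal depth in 0 of 4550 chow cells, which allows up to 0.0659% of cells with a Tnf UMI at that depth, and in 0.226% of HFD cells. Without thinning it was found in 0.0437% and 0.484% of them.

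Cxcl2, a chemokine that draws neutrophils, was at 668 CPM in chow and 2090.2 CPM in HFD, a relative log2 ratio of 1.58 (1.42 to 1.75). It was unevenly spread: at equal depth 7 of 55 chow and 25 of 71 HFD macrophages held 10 or more Cxcl2 UMIs, while 41 and 27 held none. In beta cells Cxcl2 was found in 0.154% and 0.452%. Its relative Cxcl1 was at 26 and 233 CPM, from 4 chow and 16 HFD cells. Il1b, interleukin 1 beta, was at 389 and 712 CPM with a relative log2 ratio of 0.81, short of 2-fold, but 1.31 after thinning and 1.14 without the 2 highest cells of each library. Il6 had 3 chow counts and none in HFD, and Nos2, the inducible nitric oxide synthase, had none in either. Nlrp3, the sensor of the inflammasome that releases interleukin 1, was at 20.5 and 45.9 CPM (1.05). The chemokines Ccl3 and Ccl4 differed little, with relative log2 ratios of -0.46 and 0.25.

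Feedback inhibitors of this response were higher as well. Nfkbia, which encodes the inhibitor that holds NF-kappa B in the cytoplasm, was at 349.8 CPM in chow and 1276 CPM in HFD macrophages (relative log2 ratio 1.80, 1.58 to 2.03). Tnfaip3 (A20), which ends signalling from the TNF receptor, was at 31.6 and 93.9 CPM, Nfkbiz, a nuclear member of the inhibitor family, at 31.6 and 113 CPM, and Socs3, which restrains cytokine receptors, at 74.4 and 231 CPM. All 4 had relative log2 ratios between 1.47 and 1.80 in macrophages, and after thinning Tnfaip3 was at 0.97, short of 2-fold. Outside the list, Dusp2, a phosphatase of MAP kinases, was at 50.2 and 342 CPM. Cd83, a surface marker of activated antigen-presenting cells, was at 63.3 and 214 CPM, whereas the co-stimulatory ligand Cd86 was lower in HFD, at 140 and 77.2 CPM (relative log2 ratio -0.92). Ppp1r15a, the stress-induced phosphatase subunit, and Pld4, a nuclease of endosomes, were also among the highest ratios (1.73 and 1.78).

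These transcripts went together within cells to some extent. In HFD macrophages at equal depth the rank correlation across 71 cells was 0.61 between Tnf and Cxcl2, 0.63 between Tnf and Nfkbia and 0.50 between Cxcl2 and Il1b. In 55 chow macrophages the same pairs gave 0.33, 0.13 and 0.34. The cells of a library share its mice and its handling, so these values are descriptions.

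Promoter sequence is shown for the members of the inflammatory list over 2-fold higher in HFD that carry a letter pattern of the NF-kappa B site, GGGNNTTTCC on either strand, in the 250 bases before their RefSeq start (build GRCm38.p6). Of the 9 members over 2-fold higher, 7 had a promoter in the RefSeq table, and 4 of these held the pattern. Tnf was among the 7 and held no match. Of the other measured members with a promoter 2 of 10 held it, Ccl9 and Il1rn, both lower in HFD (relative log2 ratios -0.89 and -1.59). Over the whole table it was 464 of 32851 windows (1.41%), searched over the same 250 bases. A gene was counted once if any of its windows held the pattern, while the share over the table counts windows, of which a gene can have several. The match is a description and not a bound site. The 9 members were called on these same data, and Cxcl1 and Tnfaip3 reached the count minimum largely through HFD. After thinning Tnfaip3 fell short of 2-fold (0.97). The shares therefore test nothing. Each line gives the 110 bases that end just before the start, read 5′ to 3′ on the gene's strand, with the matches in capitals.
Cxcl1, chr5:90891135-90891244, plus strand: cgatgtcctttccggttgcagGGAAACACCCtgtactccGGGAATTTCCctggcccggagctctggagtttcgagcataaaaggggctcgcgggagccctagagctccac
Cxcl2, chr5:90903789-90903898, plus strand: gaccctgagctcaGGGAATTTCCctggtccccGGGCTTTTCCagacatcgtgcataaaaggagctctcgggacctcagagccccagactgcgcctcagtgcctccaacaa
Nfkbia, chr12:55492648-55492757, minus strand: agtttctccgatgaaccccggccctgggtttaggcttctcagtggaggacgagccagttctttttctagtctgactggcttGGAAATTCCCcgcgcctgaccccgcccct
Tnfaip3, chr10:19015411-19015520, minus strand: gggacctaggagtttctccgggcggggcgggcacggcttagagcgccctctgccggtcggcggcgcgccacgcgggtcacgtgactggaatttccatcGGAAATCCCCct
The neighbouring chemokine genes Cxcl1 and Cxcl2 each held 2 matches, which began between 71 and 97 bases before the start. Of the immediate early genes over 2-fold higher, none of 7 with a promoter in the table held the pattern.

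Immediate early genes, transcription factors and regulators switched on within minutes of a stimulus, were the list furthest above the median. Of 15 measured members 14 lay above it and 9 were over 2-fold higher in HFD macrophages, against 2.6% of all measured genes. None was over 2-fold lower, and the median relative log2 ratio was 1.27. Fos, a subunit of the AP-1 factor, was at 486 CPM in chow and 1669 CPM in HFD (relative log2 ratio 1.71, 1.53 to 1.91). Egr1 was at 29.8 and 172 CPM, Zfp36, which speeds the decay of cytokine mRNA, at 261 and 710 CPM, and Dusp1 at 722 and 1330 CPM. Klf2 (6 chow and 71 HFD counts), Fosb (11 and 70) and Egr1 (16 and 154) reached the count minimum largely through the HFD library, so the count of 9 is a description only. In the other cells pooled all 15 also lay above their own median, with a list median of 0.37, and Fos was at 737 and 1218 CPM there. Taken alone, beta cells had 8 of 15 above and a list median of 0.06, and endothelial cells 13 of 15 and 0.19. In macrophages the summed count of the immediate early list per cell at equal depth followed that of the inflammatory list. The rank correlation was 0.56 in chow and 0.61 in HFD. Ier3 is on both lists, so its UMIs enter both sums. Any part of islet handling in these values was not tested.

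**Figure D4:**
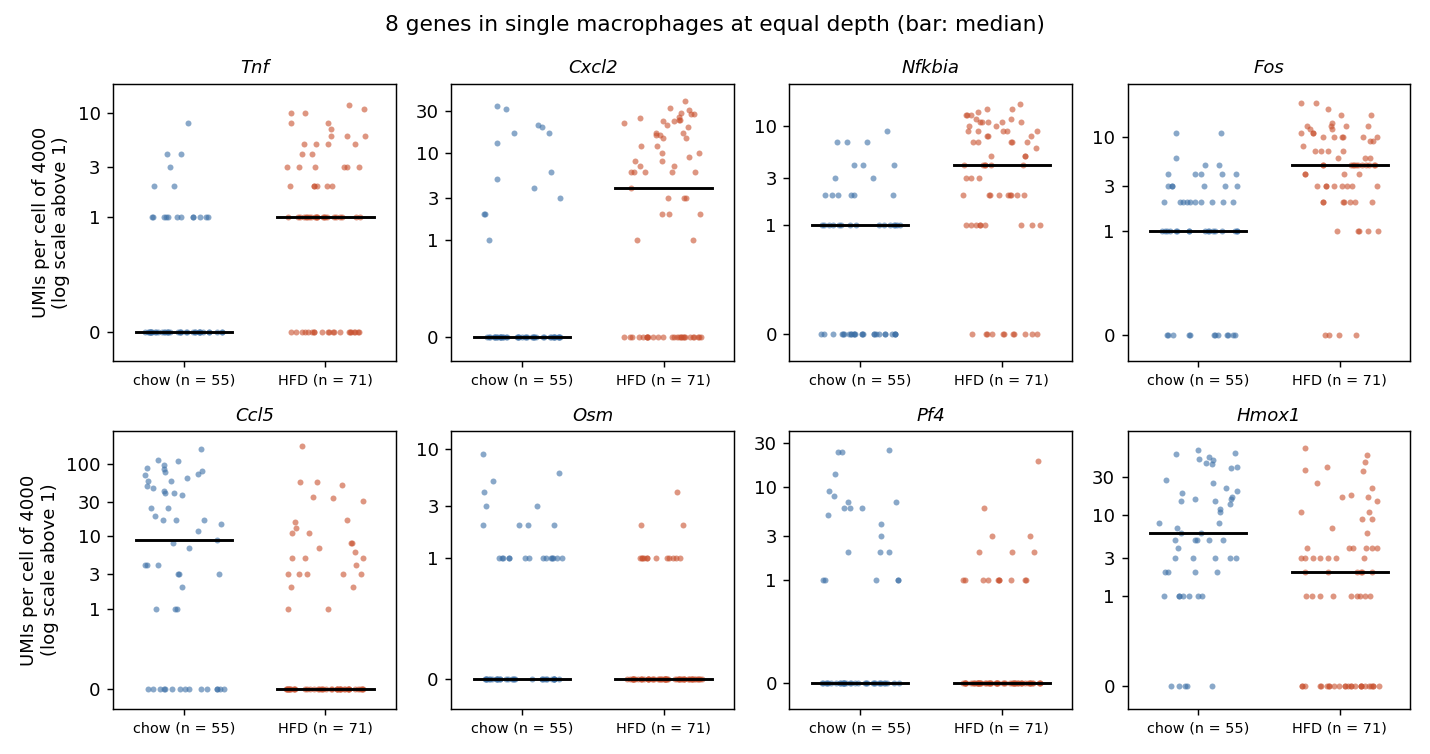
UMIs of 8 genes in each macrophage after thinning to 4000 UMIs per cell (vertical axis, logarithmic above 1), with 55 chow cells in blue, 71 HFD cells in red, sideways scatter for visibility only and a black bar at the median. Tnf, Cxcl2, Nfkbia and Fos have higher medians in HFD, and Ccl5 and Hmox1 lower ones (9 against 0 and 6 against 2 UMIs), while the cells of the libraries overlap for all 8 genes.

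On the lower side, Ccl5, a chemokine for T cells and monocytes, was at 6984 CPM in chow macrophages and 1679.8 CPM in HFD macrophages (relative log2 ratio -2.12, -2.21 to -2.03). At equal depth 27 of 55 chow cells held 10 or more Ccl5 UMIs against 12 of 71 HFD cells. The highest cells were alike, with 162 and 178 UMIs. Within each library, cells with more Ccl5 tended to hold more Cd74 (rank correlation 0.46 in chow and 0.42 in HFD), and Ccl5 went with Cxcl2 in neither (0.08 and 0.04). In the other cells, where it was at 10.1 and 4.14 CPM, its relative log2 ratio was -1.23.

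Pf4, platelet factor 4, a chemokine that tissue macrophages also make, was at 683 CPM in chow and 134 CPM in HFD (relative log2 ratio -2.41). It was found in 30 of 56 chow and 36 of 71 HFD cells at their own depth, and in 22 of 55 and 17 of 71 at equal depth. Clec4n (Dectin-2), a receptor for fungal sugars, was at 329 and 62.6 CPM (-2.45). Osm, oncostatin M, a cytokine of the interleukin 6 family, was at 257 and 69.3 CPM (-1.95), and Il1rn, the antagonist of the interleukin 1 receptor, at 110 and 38 CPM (-1.59). These 2 were the members of the inflammatory list over 2-fold lower in HFD. Cebpb, a transcription factor of myeloid activation, was at 301 and 112 CPM. Hmox1, which breaks down haem, was at 3656 and 1894 CPM, with a relative log2 ratio of -1.01 (-1.23 to -0.95 over the alternatives). Ap3s1, an adaptor of vesicle transport, and Gstm1, a glutathione transferase, had ratios of -1.55 and -1.47. Resp18, a gene of endocrine granules, was lower too (-1.65), at 192 and 63.7 CPM against 3039 and 2117 CPM in the other cells. Its ratio was -1.22 without the 3 hormone-rich cells, and -0.66, short of 2-fold, when 20 or more selecting UMIs were required.

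Interferon-induced genes lay below the median for 13 of 14 measured members, with a list median of -0.56. Of the 14, 3 were over 2-fold lower in HFD, against 2.15% of all measured genes. Ifitm3, which blocks entry of viruses at the endosome, was at 292 CPM in chow and 67.1 CPM in HFD (relative log2 ratio -2.18), Irf7, the factor that amplifies interferon expression, at 154 and 40.3 CPM (-1.99), and Ifi27l2a at 188 and 76.0 CPM (-1.37). Without the 3 hormone-rich cells Ifi27l2a was at -0.72, short of 2-fold, as it was after thinning (-0.92), and Ifitm3 was at -1.79. The MHC class I genes of the list were modestly lower, B2m at -0.65, H2-D1 at -0.53 and H2-K1 at -0.58. Outside the list, H2-Q7, a class I gene with near-identical copies, was at -1.90. The other cells also had a list median below 0 (-0.36). Taken alone, beta cells were close to the macrophages, with 1 of 14 above their own median and a list median of -0.49. Endothelial cells had 8 of 14 above and a list median of 0.15.

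The genes that define the cells differed little by diet. Of 34 measured resident macrophage genes 14 lay above the median and 20 below. Past 2-fold there was 1 each way, Clec4a2 (13 and 51 counts, the minimum being reached largely through HFD) and Pf4. This is near the share over all measured genes, 2.6% higher and 2.15% lower. Cx3cr1, the fractalkine receptor, was at 141 and 261 CPM and was found at equal depth in 34.5% of chow (22.2 to 48.6%) and 69.0% of HFD macrophages (56.9 to 79.5%), 51.8% and 88.7% without thinning, against 0.0220% and 0.161% of beta cells. Cybb showed a like difference, at 115 and 232 CPM. Both were short of 2-fold on the relative scale (0.81 and 0.93), though Cx3cr1 was past it after thinning (1.04). In the other cells the resident list had a median of 0.89, with 30 of 34 members above their own all-gene median, at low levels: Cx3cr1 was at 0.30 and 1.24 CPM there. The MHC class II list had a median of 0.12 in macrophages and 0.78 in other cells, and the selecting genes 0.12 and 0.97.

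Lipid and lysosome genes were divided. Lpl, lipoprotein lipase, was higher in HFD (599 and 991 CPM, relative log2 ratio 0.66) while the fatty acid carrier Fabp5 (1928 and 1007 CPM, -1.0), Gpnmb (939 and 555 CPM, -0.83, and -1.35 after thinning) and the tetraspanin Cd9 (294 and 166 CPM, -0.89) were lower. Gpnmb and Fabp5 went together across cells in both libraries (rank correlation 0.42 and 0.45). The lipid-associated list as a whole lay at 0.07 with 13 of 24 members above the median. Its members past 2-fold were Spp1, higher mainly through 1 HFD cell, and Ctsl and Fabp5, lower. That HFD cell also held 301 of the 308 HFD UMIs of Mgp, a gene of matrix-producing cells. Over all measured genes 2.6% were over 2-fold higher and 2.15% lower. For the lysosome list 17 of 26 members lay below the median (list median -0.20), and Ctsl was the one past 2-fold, at 497 and 228 CPM.

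Metabolic genes shifted by small amounts. Glycolysis lay below the median for 9 of 10 measured members, with Pkm at -0.79, Aldoa at -0.73 and Gapdh at -0.48, none past 2-fold. Hk2, hexokinase 2, was the member above it (0.83). The list median was -0.44 in macrophages and -0.26 in the other cells. Taken alone, beta cells had a list median of -0.40 with 2 of 10 above, and endothelial cells -0.33 with 3 of 10. Oxidative phosphorylation had 19 of 48 members above the median and a list median of -0.06. Heat shock genes had 7 of 8 above and a median of 0.22, against -0.25 in other cells. Cell cycle genes were scarce: Mki67 had 1 count in each library, and 10 of 11 Birc5, all 13 Rrm2 and 14 of 18 Tyms UMIs came from 1 HFD macrophage.

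The 2 highest relative ratios among the genes named by rank, Mgp (5.66) and Krt8 (3.81), each rested on 1 or 2 cells. A single HFD cell held 301 of 308 Mgp UMIs, along with 16 of 19 Sparc UMIs, both genes of matrix-producing cells. The same cell held 152 of 194 Spp1 UMIs. A pair of HFD cells held 67 and 66 of 134 Krt8 UMIs. These cells had the most alike profiles of all 2485 HFD pairs (Pearson r 0.58, next highest 0.38, median -0.02), with barcodes that differed at 12 bases, and whether they were 1 cell read under 2 barcodes was not tested. The Krt8 ratio was 4.89 without the 3 hormone-rich cells. Leaving out 1 of the pair lowered it to 2.86 and left Tnf at 1.98 and Ccl5 at -2.10. When the highest 2 cells of each library were left out, Tnf was at 2.13, Nfkbia at 1.93, Fos at 1.78 and Ccl5 at -2.67, so that none of these rested on 1 or 2 cells.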

How the data were processed

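Deposited UMI counts per gene and barcode were used, 1 library per diet. Per the submitters' processing notes, the authors made these counts with Cell Ranger 2.1.0 from 10x 3′ v2 libraries. For the genome build, the annotation and the barcode filter, nothing is stated in the sources used here. The table lists 27998 genes, 65 symbols more than once, and 9 symbols of the 31 gene lists are not in it. Raw counts per gene were summed over cells of a class in each library. Classes were beta cells (Ins1 and Ins2 at least 20% of UMIs), other endocrine cells (another hormone at least 5%), and endothelial and mesenchymal cells chosen like the macrophages from 7 genes each. No doublet caller was run. The labels state doublets under 5%, and the insulin limit and an alternative without hormone-rich cells stand in for it.

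CPM has exact Poisson 95% intervals, shares exact Clopper-Pearson intervals and HFD over chow ratios exact conditional intervals, all for counting error only. A count of 0 was given the limit of 3 counts. For shares, cells were thinned to 4000 UMIs (seed 20), which left out 1 chow macrophage and no HFD macrophage. Genes named in the text were the 25 highest over other cells with at least 50 CPM in both libraries, and the 12 highest and 12 lowest diet ratios with a summed count of at least 100. The members of each list with the most counts, those past 2-fold and those whose role is described were named too, and Mgp, Sparc, Retnla and Krt8 were followed into single cells after their values were seen. The members and lists were chosen with earlier results of these data known. Results for 2 genes within these rules are not reported here. With 1 library per diet no model was fitted and no p-value is given. Alternatives changed the cell rule, scaling (TMM factors from edgeR 4.0.16 among them), counts added, depth and count minimum. Python 3.11.15, numpy 2.4.6, scipy 1.17.1, pandas 2.3.3 and matplotlib 3.10.9 were used. Promoters came from the RefSeq table of GRCm38.p6, with 250 bases before and 50 after each start, matched by symbol.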

Additional observations from a re-analysis of the deposited data

Results flagged for a closer look

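For 2 of the named genes the HFD over chow ratio pointed one way in macrophages and the other way in all other cells together. Cxcl1, the neutrophil chemokine, had a relative log2 ratio of 3.05 in macrophages and -0.94 in the other cells. It had 14 chow and 208 HFD macrophage counts and so reached the count minimum largely through HFD, 10 of the 14 lay in 1 chow cell, and its ratio was 4.90 without the 2 highest cells of each library. Cxcl1 was rare outside macrophages: at equal depth 11 of 4550 chow and 3 of 3100 HFD beta cells held it. The highest of these beta cells held 14 UMIs in chow and 3 in HFD. Gstm1, a glutathione transferase, had -1.47 in macrophages and 0.36 in the other cells. With 1 library per diet these differences were not tested.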

How the results depend on the processing

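No paired analysis was possible because each diet has 1 library, and for the same reason no replicate could be left out. The genes at least 4-fold higher in macrophages than in other cells numbered 629. They numbered 976 per 1000000 of all UMIs and 416 with every cell thinned to 4000 UMIs. With no minimum count 12769 genes passed the threshold, but these include genes with few or no counts. Macrophages supplied far fewer UMIs than the other cells, so for undetected genes the counts added to both sides alone give a ratio past 4-fold. The figure of 12769 is therefore not a count of genes higher in macrophages. Of the genes past 2-fold by diet, 75 were higher and 62 lower in HFD macrophages. These were 38 and 35 after thinning, 281 and 188 with a summed count of at least 20, and 23 and 19 with at least 200. Heat shock genes were 100% above the median with 5 counts added and 50% with every cell weighted alike (list median 0.01), and glycolysis genes 0% after thinning. The ratio of Krt8 turned to -0.87 without the 2 highest cells of each library. Of the other values, 219 for shares, counts and lists and 841 for single genes stayed within their bounds, and 42 for single genes moved. The following 2 alternatives were chosen after seeing the data. Without the 3 hormone-rich cells 631 genes were higher than in other cells, 78 higher and 52 lower by diet, and the macrophage shares were 0.845% and 1.59%. Without the shallower of 2 like HFD cells the counts were 629, 73 and 64. Depth limits genes under about 5.58 CPM in chow and 3.36 CPM in HFD macrophages.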

Other observations

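C1qa was the one selecting gene with a sizeable level outside macrophages. Beta cells held 49.7 CPM of C1qa in chow and 55.4 CPM in HFD, against 6.66 and 13 CPM of C1qb, its partner in the complement component C1q. The ratio of C1qa to C1qb counts was 0.866 and 0.929 in macrophages, 7.45 and 4.28 in beta cells, and 40.9 and 26.6 in other endocrine cells. At equal depth C1qa was found in 6.62% of chow and 6.84% of HFD beta cells. Endothelial cells held 7 C1qa counts and 1 C1qb count in chow and 6 of each in HFD.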
